A study of Mus musculus with 13 samples.

Results

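Glycolysis and the citric acid cycle were followed here through 40 mouse genes, of which 15 encode glycolytic enzymes, 12 enzymes of the cycle, 6 the entry of pyruvate into the cycle, 5 the shuttles that carry reducing equivalents into mitochondria, and the others Ldhb and Fbp1. They were chosen by gene symbol, with no value in the rule, and matched 41 of the 55421 entries of the deposited count table, because Aldoa has a second entry. The libraries came from islets of C57BL/6 mice aged 10 to 20 weeks that were cultured overnight in 5.5 mM glucose, dispersed and sorted. All 13 libraries came from mice with 1 Ins1-Cre allele (Ins1.Cre/+) and a homozygous membrane reporter (Rosa26.mTmG/mTmG), which turns from Tomato to GFP where Cre has acted. GFP-positive cells were taken as beta cells and Tomato-positive cells as non-beta cells. Controls were Txnrd1.+/+ (4 beta and 3 non-beta libraries) and the knockout-labelled mice Txnrd1.fl/fl (3 beta and 3 non-beta libraries). Because Ins1 drives the Cre, the Tomato-positive cells of the knockout-labelled mice carry the floxed allele in unrecombined form by design. Whether animals were pooled is not stated, nor whether libraries came from separate mice, so that p-values measure the spread between these libraries.

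Glycolysis splits glucose to pyruvate in the cytosol, and mitochondria oxidise pyruvate through pyruvate dehydrogenase and the citric acid cycle. In beta cells this flux raises ATP and thereby triggers insulin release, so that glucose metabolism itself acts as the glucose sensor. Beta cells make little lactate dehydrogenase A and reoxidise cytosolic NADH mainly through the glycerol phosphate shuttle (Gpd1 and Gpd2) and the malate-aspartate shuttle (Got1, Got2, Mdh1 and Mdh2). Thioredoxin reductase 1, the product of Txnrd1, keeps cytosolic thioredoxin reduced at the expense of NADPH.

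The libraries held 28.7 to 36.8 M counts. The summed level of 7 beta-cell markers was 260300 to 307300 CPM (counts scaled to a common library size) in control beta libraries, 157800 to 289600 in knockout-labelled beta libraries and 6699 to 31050 in non-beta libraries. Knockout-labelled replicate 3 stood apart in both fractions, with the lowest beta-marker sum and the highest alpha-marker sum among beta libraries (3677 CPM, against 449.7 to 820.3 in the others) and the highest beta-marker sum among non-beta libraries. Non-beta libraries were led by 5 alpha-cell markers, at 147600 to 202100 CPM. Txnrd1 itself was counted at 540.0 to 605 CPM in knockout-labelled and 273 to 324 CPM in control beta libraries. Counts cover the whole gene and the deleted exons are not given, so that this count does not check the label, and the groups are called by their label throughout. In sorted bulk RNA, a change in the mix of cells and a change in RNA per cell cannot be told apart.

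Per kilobase of gene length, the most abundant members in control beta cells were Aldoa (fructose-bisphosphate aldolase, 679.7 ± 202 CPM per kb, mean ± SD, n = 4), Pkm (pyruvate kinase, 318 ± 69.0) and Mdh1 (cytosolic malate dehydrogenase, 246 ± 13.4). Gapdh (197 ± 43.2), Tpi1 (165 ± 67.7) and Eno1 (133 ± 59.8) followed, with SDs that overlapped between neighbours. The highest enzymes of the cycle were Idh2, the mitochondrial NADP-dependent isocitrate dehydrogenase (120.2 ± 7.03), Mdh2 (110.1 ± 5.61) and Fh1, fumarase (65.8 ± 4.75). Hk2, a hexokinase of high glucose affinity, was the lowest member, at 0.0133 ± 0.0133 CPM per kb. The gene length used equals the union of all annotated exons for 40 of the 41 entries. This union can exceed the length of the main transcript, so that ranks and shares per kilobase are approximate between genes.

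Of the 40 tested entries, 9 differed in beta cells between the knockout label and controls, with 6 higher and 3 lower under the label (edgeR quasi-likelihood test, Benjamini-Hochberg adjusted p below 0.05 over all 17525 genes tested). That is 22.5% of the members, against 20.1% of all genes tested (10.1% higher and 9.97% lower, or 50.4% of calls higher, which became 69.5% with scaling by library totals alone, where 7 members were higher and 2 lower), so that the share of members called was near the background. The median log2 fold change was 0.10 over the members and 0.0066 over all genes. In the glycolytic group 2 of 15 tested entries were higher, in pyruvate entry 1 of 6, in the cycle 2 higher and 2 lower of 12, and in the shuttles 1 higher and 1 lower of 5. Hk2 did not pass the filter on low counts, and neither Ldhb (adjusted p = 0.0502) nor Fbp1 (adjusted p = 0.075) passed the test in edgeR. Every knockout-labelled library lay above every control library for 7 members (14.5% of all genes) and below for 5 (15.8%). Without knockout-labelled beta replicate 3, 9 members passed, all of them among the 9 above. Markers of other cells and of beta cells differed beside these members. The 2 gamma-cell markers (Ppy and Pyy) summed to 403.5 to 1222 CPM in the knockout-labelled and 165.6 to 375.0 CPM in the control beta libraries, without overlap (Ppy called higher, edgeR adjusted p = 0.0264). Endothelial Pecam1 was called higher (edgeR adjusted p = 0.0436), with means of 0.294 CPM in control and 1.35 CPM in knockout-labelled libraries and overlapping groups. The 4 endothelial markers summed to 0.6558 to 3.623 CPM in control and 0.6515, 1.489 and 14.37 CPM in knockout-labelled beta replicates 1 to 3. In knockout-labelled replicates 1 and 2, Cdh5 stood at 0 and 0, Kdr at 0.0686 and 0, and Plvap at 0.206 and 0.579 CPM. All 4 were highest in replicate 3. The sum of the 5 macrophage and leukocyte markers was lower under the label, without overlap. It was 49.57 to 54.14 CPM in the knockout-labelled and 60.26 to 82.55 CPM in the control beta libraries. Cd68 made up most of it, with means of 54.8 CPM in control and 38.1 CPM in knockout-labelled libraries. Csf1r had a slightly lower mean (12.9 and 12.5 CPM). Lyz2 (0.205 and 1.29 CPM), Adgre1 (0.0269 and 0.113 CPM) and Ptprc (0.0343 and 0.0863 CPM) had higher means under the label, each highest in replicate 3. Of the 7 beta-cell markers Ins1, Mafa, Ucn3, G6pc2 and Slc2a2 were called lower. The part of these differences in the members' changes was not tested.

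**Figure D1:**
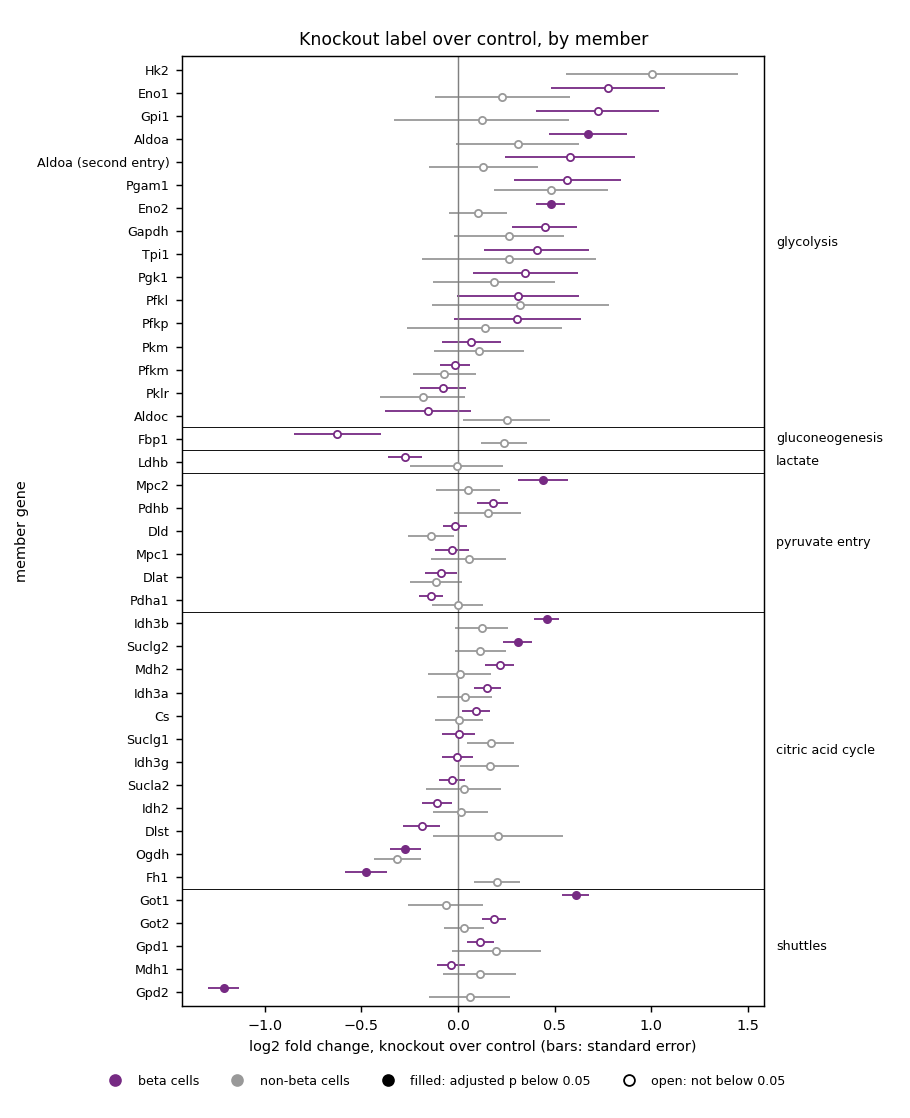
Log2 fold change of knockout-labelled over control for each member (points) with its standard error (bars), in beta cells (purple, 4 control and 3 knockout-labelled libraries) and non-beta cells (grey, 3 and 3 libraries), grouped by role. The 9 filled points have an adjusted p below 0.05 and are all in beta cells, with Gpd2 lowest at −1.21.

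The change with the smallest adjusted p among the members was in Gpd2, the mitochondrial glycerol-3-phosphate dehydrogenase that passes electrons from cytosolic glycerol phosphate to ubiquinone (chr2:57237635-57370719, plus strand, GRCm38). Gpd2 stood at 207, 212, 192 and 191 CPM in control beta replicates 1 to 4 and at 80.8, 94.2 and 83.5 CPM in knockout-labelled beta replicates 1 to 3. The non-beta libraries held 63.2, 82.2 and 50.2 CPM in controls (replicates 2 to 4) and 61.7, 58.5 and 81.8 CPM under the knockout label. The knockout-labelled beta libraries thus lay below all control beta libraries and near the range of the non-beta fraction. The mean fell from 200.4 ± 10.8 to 86.2 ± 7.05 CPM, a log2 fold change of −1.21 (standard error, SE, 0.08, edgeR adjusted p = 7.25e-06). Its call held under all 15 alternatives of the processing. An antisense gene, A930012O16Rik, shares 7.44% of the exon bases of Gpd2, but was counted at only 7.48 to 8.32 CPM in control and 4.39 to 5.54 CPM in knockout-labelled beta libraries. The strand setting of the counting is not given, so that reads of these 2 genes cannot be told apart where they overlap.

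Gpd1, the cytosolic partner of Gpd2, reduces dihydroxyacetone phosphate with NADH. It stood at 57.5 ± 2.33 CPM in control and 62.1 ± 3.25 CPM in knockout-labelled beta cells (log2 fold change 0.12, edgeR adjusted p = 0.279). Gpd2 made up 61.2% ± 2.06 (SD, n = 4) of the summed per-kilobase level of Gpd1 and Gpd2 in control beta cells and 38.5% ± 1.01 (n = 3) under the knockout label. In non-beta cells its share was 56.6% ± 7.36 in controls and 54.8% ± 12.2 under the label. In rank by level per kilobase, Gpd2 went from place 21 of 41 in control to 32 in knockout-labelled beta cells.

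In the malate-aspartate shuttle, Got1, the cytosolic aspartate aminotransferase (chr19:43499752-43524605, minus strand), moved the other way. Got1 was counted at 83.9, 80.8, 85.8 and 73.8 CPM in the control and 124, 126 and 119.7 CPM in the knockout-labelled beta libraries, with no overlap. The rise from 81.1 ± 5.27 to 123 ± 3.31 CPM was 0.61 on the log2 scale (SE 0.07, edgeR adjusted p = 0.000286) and held under all 15 alternatives. The mitochondrial enzyme Got2 lay higher in each knockout-labelled library as well, by 0.19 on the log2 scale, but did not pass the test in edgeR (adjusted p = 0.0557). Mdh1, which reduces oxaloacetate to malate in the cytosol, was at 654 ± 35.6 and 637 ± 49.1 CPM and was not called (log2 fold change −0.04, edgeR adjusted p = 0.771).

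**Figure D2:**
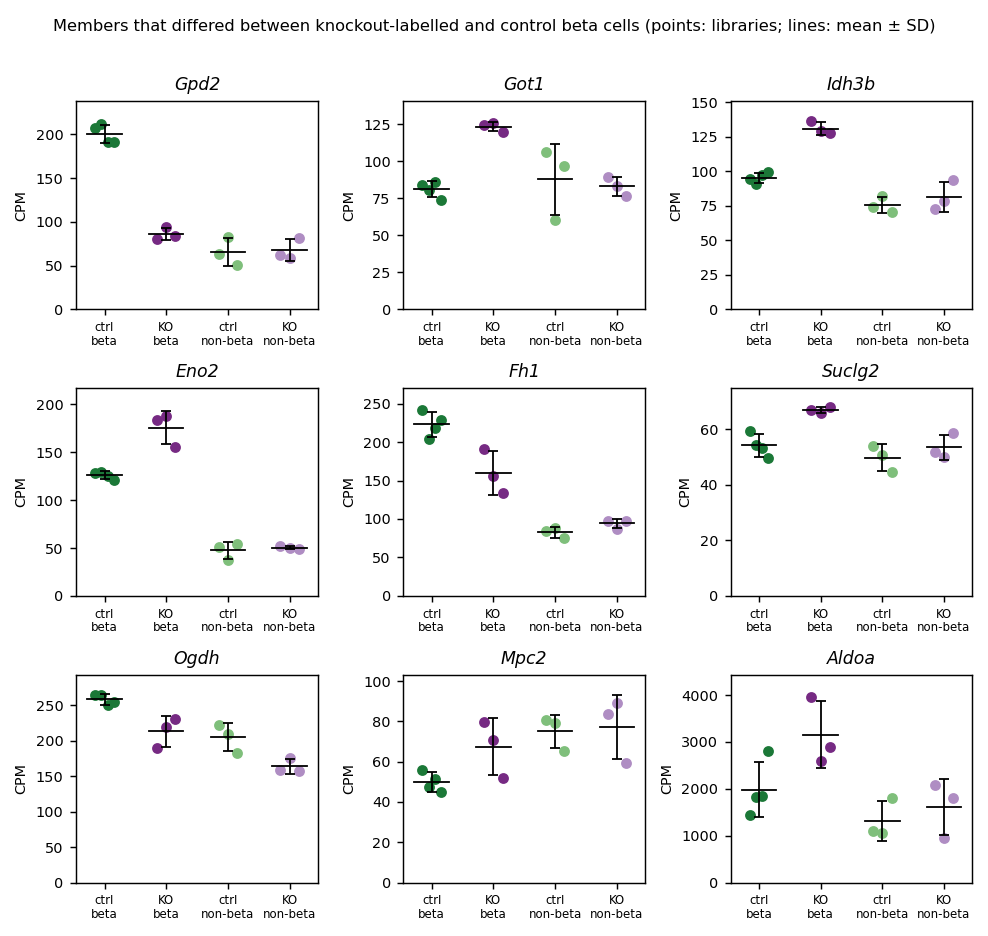
Level in CPM (vertical axes, each from 0) of the 9 members that differed between knockout-labelled and control beta cells, in all 13 libraries. Points are libraries and lines the mean ± SD of a group (n = 4 control beta, 3 in each other group), and for Gpd2 the 3 knockout-labelled beta libraries lie between 80.8 and 94.2 CPM.

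Among the enzymes of the cycle, Idh3b and Suclg2 were higher and Fh1 and Ogdh lower. Idh3b, a regulatory subunit of the NAD-dependent isocitrate dehydrogenase (chr2:130279309-130284547, minus strand), had 94.7, 90.7, 96.9 and 99.3 CPM in the control and 136, 129 and 128 CPM in the knockout-labelled beta libraries. All 3 knockout-labelled libraries lay above all 4 controls, and the log2 fold change was 0.46 (SE 0.07, edgeR adjusted p = 0.000996). The catalytic subunit Idh3a (0.15, adjusted p = 0.141) and the other regulatory subunit Idh3g (near 0, adjusted p = 0.981) were not called by edgeR. The share of Idh3b in the summed per-kilobase level of the 3 subunits was 26.9% ± 1.83 in control and 33.0% ± 0.428 in knockout-labelled beta cells.

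Suclg2 encodes the beta chain of the GDP-forming succinyl-CoA ligase (chr6:95473009-95718800, minus strand). It was counted at 59.4, 54.1, 53.2 and 49.7 CPM in the control and 66.8, 65.9 and 68.1 CPM in the knockout-labelled beta libraries, which did not overlap. The log2 fold change was 0.31 (SE 0.08, edgeR adjusted p = 0.0161), and 0.0574 in a fit of all 13 libraries. Sucla2, the beta chain of the ADP-forming enzyme, was not called (−0.03, adjusted p = 0.766), nor was their common alpha chain Suclg1 (near 0, adjusted p = 0.985).

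Fh1, fumarase, which hydrates fumarate to malate (chr1:175600374-175625635, minus strand), stood at 242, 204, 218 and 229 CPM in the control and 191, 155 and 134 CPM in the knockout-labelled beta libraries. The highest knockout-labelled library lay below the lowest control, and the mean fell from 223 ± 16.1 to 160.1 ± 28.8 CPM (log2 fold change −0.48, SE 0.11, edgeR adjusted p = 0.0126). Without knockout-labelled replicate 2 the adjusted p was 0.0505. Knockout-labelled replicate 3, the beta library with the most alpha-cell RNA, had the lowest Fh1 level, and Fh1 was lower in non-beta cells (84.7, 88.4 and 74.9 CPM in controls). Without that library the log2 fold change was −0.38 (edgeR adjusted p = 0.0209). The part of other-cell RNA in the Fh1 level was not tested.

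Ogdh, the E1 subunit of 2-oxoglutarate dehydrogenase (chr11:6291633-6356642, plus strand), had 265, 264, 249.8 and 254 CPM in the control and 189, 219.6 and 231 CPM in the knockout-labelled beta libraries. The groups did not overlap, at a log2 fold change of −0.27 (SE 0.08, edgeR adjusted p = 0.0327), but the call was kept in only 8 of 15 alternatives. In non-beta cells Ogdh had 222, 209 and 183 CPM in controls and 159, 175 and 156 CPM under the label, again without overlap, where 5.71% of all genes tested lay below in this way (log2 fold change −0.31, edgeR adjusted p = 0.999). Citrate synthase (Cs, 0.09), Mdh2 (0.22), Idh2 (−0.11) and Dlst (−0.19) completed the cycle group without a call in beta cells.

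For the entry of pyruvate, Mpc2 was called and 5 members were not. Mpc2 forms with Mpc1 the mitochondrial pyruvate carrier (Mpc2 at chr1:165460637-165481214, plus strand). It was counted at 56.0, 47.2, 51.2 and 44.7 CPM in the control and 79.4, 70.9 and 52.0 CPM in the knockout-labelled beta libraries, where replicate 3 overlapped the controls. The log2 fold change was 0.44 (SE 0.13, edgeR adjusted p = 0.0358), kept in 9 of 15 alternatives. Mpc1 was at −0.03 (adjusted p = 0.834). The pyruvate dehydrogenase subunits Pdha1 (−0.14), Pdhb (0.18), Dlat (−0.09) and Dld (−0.02) were not called either, at these log2 fold changes.

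In glycolysis, Eno2 and Aldoa were higher under the label. Eno2, the neuronal and neuroendocrine enolase (chr6:124760053-124769673, minus strand), stood at 129, 129.8, 125 and 121 CPM in the control and 184, 188 and 155 CPM in the knockout-labelled beta libraries, without overlap. Its log2 fold change was 0.48 (SE 0.08, edgeR adjusted p = 0.00177) and was called in all 15 alternatives. Aldoa (chr7:126795234-126800751, minus strand) had 1432, 1817, 1852 and 2813 CPM in the control and 3957, 2603 and 2891 CPM in the knockout-labelled beta libraries. Control replicate 4 lay above knockout-labelled replicate 2, and the call (log2 fold change 0.67, SE 0.20, edgeR adjusted p = 0.0381) was kept in 9 of 15 alternatives. Eno1 (0.78, adjusted p = 0.0889), Gpi1 (0.72, 0.133), Pgam1 (0.57, 0.174) and Gapdh (0.45, 0.0844) had log2 fold changes near or above that of Eno2, but did not pass in edgeR. Of the 15 tested glycolytic entries, 12 had a positive log2 fold change, with a median of 0.41.

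The number of glycolytic calls rose when control beta replicate 4 was left out, while the calls of Eno2 and Aldoa were kept. Without control beta replicate 4, 13 members passed, with Mpc2 lost and Eno1, Gpi1, Pgam1, Tpi1 and Gapdh added. With the replicate number as a block, under which control replicate 4 has no partner and so has no weight in the label effect, 14 members passed in edgeR, 11 higher and 3 lower. The 9 above were among them, and the added ones were Eno1 (log2 fold change 1.09, adjusted p = 0.0092), Gpi1 (1.11, 0.00795), Pgam1 (0.81, 0.0351), Tpi1 (0.69, 0.0402) and Gapdh (0.59, 0.0104). All 5 encode glycolytic enzymes. The same 5 were added without that library and with the block, so the parts of the block and of that library cannot be told apart. In the opposite direction, a fit of all 13 libraries called 5 members, losing Aldoa, Mpc2, Ogdh and Suclg2, with Eno2 as the only glycolytic call. Without a filter on low counts 14 passed. The share of all genes called is not given here for the block, for the fit without control beta replicate 4 or for the fit without the filter. Their counts of members thus have no background beside them and are not read as a result about the members. In the authors' deposited table for this contrast, 13 of 39 listed members had a false discovery rate below 0.05, against 25.8% of its 11810 genes. They were the 9 above with Eno1, Gapdh, Gpi1 and Fbp1.

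Most glycolytic genes varied between libraries of a group far more than the cycle did. The pooled within-group SD of log2 CPM had a median of 0.478 over the 14 glycolytic entries of at least 10 mean CPM, against 0.129 over the 12 cycle enzymes, 0.149 in pyruvate entry, 0.218 in the shuttles and 0.159 over 10117 genes of that level. It was highest for the liver-type phosphofructokinase Pfkl (0.701), for Gpi1, glucose-6-phosphate isomerase (0.677), and for the platelet-type phosphofructokinase Pfkp (0.659). Eno2 (0.151) and the muscle-type phosphofructokinase Pfkm (0.162) were near the value over all genes, and the liver-type pyruvate kinase Pklr (0.208) was above it. In the cycle, Dlst, the E2 subunit of 2-oxoglutarate dehydrogenase, had the highest spread (0.383).

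The variation followed the same libraries in both fractions. Pfkl stood at 146, 263, 262 and 486 CPM in control beta replicates 1 to 4 and 171, 160.1 and 396 CPM in control non-beta replicates 2 to 4. Under the knockout label it stood at 469, 257 and 348 CPM in beta replicates 1 to 3 and 408, 135 and 354 CPM in non-beta replicates 1 to 3. Control replicate 4 was thus the highest control and knockout-labelled replicate 2 the lowest of its group in beta and in non-beta cells alike. Eno1 gave 424, 632, 632 and 1175 CPM (control beta), 1696, 901 and 1072 CPM (knockout-labelled beta), 449, 475 and 815 CPM (control non-beta) and 871, 361 and 785 CPM (knockout-labelled non-beta). Pgk1, phosphoglycerate kinase, gave 77.6, 106, 111 and 186 CPM, 214, 111 and 134 CPM, 85.7, 75.6 and 145 CPM and 149, 70.2 and 125 CPM in the same order of groups. In both genes control replicate 4 was the highest control and knockout-labelled replicate 2 the lowest of its group in each fraction, as for Pfkl.

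That order, chosen after the values were seen, held for 12 of 16 glycolytic entries, namely Aldoa, Aldoc, Eno1, Gapdh, Gpi1, Hk2, Pfkl, Pfkp, Pgam1, Pgk1, Pkm and Tpi1. It held for 0 of 12 cycle enzymes, 0 of 6 in pyruvate entry, 0 of 5 in the shuttles and for 1.45% of 19942 genes. In 10 of the 12, knockout-labelled replicate 1 was also the highest of its group in both fractions. The order of Hk2 in beta cells rests on few counts, at 0 to 0.177 CPM in control and 0 to 0.337 CPM in knockout-labelled libraries. Among 74 other measured genes of the pathway the order held for 12 (16.2%). These were Egln1, Egln3, Eno1b, Hkdc1, Ldha, Pdk1, Pdk4, Pfkfb3, Pgm1, Slc16a3, Slc2a1 and Vhl. Slc2a1, the glucose transporter GLUT1, had 26.7, 48.7, 58.4 and 111 CPM in control beta and 154, 85.7 and 156 CPM in knockout-labelled beta libraries. Egln3, a prolyl hydroxylase, had 0.131, 0.422, 0.825 and 3.07 CPM in control beta and 8.06, 1.19 and 4.19 CPM in knockout-labelled beta libraries. Eno1b is a near-identical copy of Eno1 with which reads may be split.

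**Figure D3:**
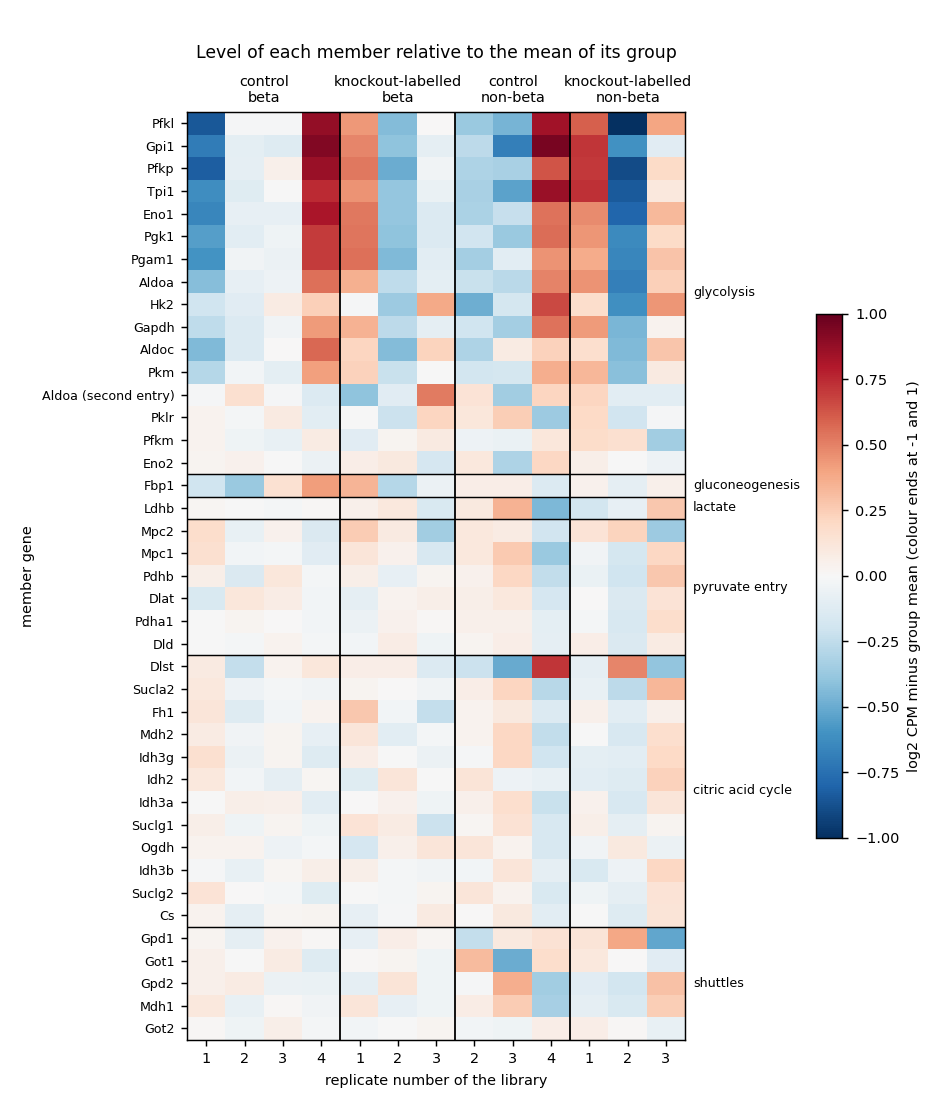
Log2 level of each member in each library minus the mean of its group (colour, ends at −1 and 1, pseudocount 0.5), with libraries by group and replicate number on the horizontal axis and members by role on the vertical axis. The upper block of glycolytic genes is red in control replicate 4 and blue in knockout-labelled replicate 2 in both fractions, and the cycle and shuttle blocks are paler, with Dlst the most coloured of the cycle.

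Marker sums of other cells also differed among these libraries. Dividing-cell markers summed to 6.39 CPM in control beta replicate 4, against 1.15 to 1.77 CPM in control beta replicates 1 to 3, and to 1.89 and 1.85 CPM in knockout-labelled beta replicates 1 and 2, with replicate 3 below both. In non-beta cells they summed to 1.14, 0.729 and 2.77 CPM in control replicates 2 to 4 and to 2.41, 1.15 and 1.24 CPM in knockout-labelled replicates 1 to 3. Acinar markers summed to 5851 CPM in control non-beta replicate 4, against 2213 and 2437 CPM in replicates 2 and 3, and to 6083, 4273 and 1128 CPM in knockout-labelled non-beta replicates 1 to 3. Among controls the dividing sum of each fraction and the acinar sum of non-beta cells were highest in replicate 4. So were the duct sum (4.908 CPM in beta and 19.77 CPM in non-beta cells) and the macrophage and leukocyte sum (82.55 and 192.6 CPM). The acinar sum of knockout-labelled non-beta cells and the dividing sum of knockout-labelled beta cells were lowest in replicate 3 and not in replicate 2. The dividing sum of knockout-labelled non-beta cells was lowest in replicate 2. Under the label the duct sum was lowest in replicate 3 in both fractions. The macrophage and leukocyte sum was lowest in replicate 2 in beta cells and in replicate 1 in non-beta cells. In beta libraries the acinar sum was 3.61 to 24.8 CPM. The part these measures have in the order of libraries was not tested.

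The promoters of the members were searched for ACGTG, a form of the core of the hypoxia response element to which HIF-1 binds. Other forms of the core were not searched, and the core below means ACGTG. The search covered both strands (CACGT on the other), in windows from 250 bases before to 50 bases after each start in RefSeq, GRCm38.p6. The core overlaps the E-box CACGTG. Promoters were found for 38 of 40 members, and Gpd1 and Idh3a were not matched. Among the members that kept the library order, 8 of 18 promoters (44.4%) and 7 of 12 genes (58.3%) held the core. Among the other members 12 of 37 promoters (32.4%) and 6 of 26 genes (23.1%) did, as did 19.7% of all 32544 promoters and 21.9% of all 26742 genes in RefSeq's list. The E-box was in 7.27% of the 55 member promoters and 7.17% of all. The antioxidant response element core TGACNNNGC, to which NRF2 binds, was in 16.4% and 12.4%. A match describes the letters of a window and shows no binding.

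The promoters of 5 members are printed to show these letters in genes that did and did not keep the order, as the 250 bases before the start, with each core in capitals and everything else in lower case. Pgk1, Pgam1 and Hk2 (on few counts in beta cells) kept the library order and hold the core. Gpi1 kept the order without it, and Eno2, which varied little between libraries, does not hold it. They lie at chrX:106186850-106187099 (plus strand) for Pgk1, chr19:41911621-41911870 (plus strand) for Pgam1, chr6:82774455-82774704 (minus strand) for Hk2, chr7:34230337-34230586 (minus strand) for Gpi1 and chr6:124769674-124769923 (minus strand) for Eno2, all in GRCm38.p6, 5′ to 3′ along the gene.
Pgk1: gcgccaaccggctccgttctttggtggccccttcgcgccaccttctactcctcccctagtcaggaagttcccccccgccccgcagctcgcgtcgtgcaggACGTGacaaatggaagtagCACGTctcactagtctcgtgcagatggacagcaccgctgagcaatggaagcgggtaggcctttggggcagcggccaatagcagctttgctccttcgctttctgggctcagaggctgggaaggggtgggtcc
Pgam1: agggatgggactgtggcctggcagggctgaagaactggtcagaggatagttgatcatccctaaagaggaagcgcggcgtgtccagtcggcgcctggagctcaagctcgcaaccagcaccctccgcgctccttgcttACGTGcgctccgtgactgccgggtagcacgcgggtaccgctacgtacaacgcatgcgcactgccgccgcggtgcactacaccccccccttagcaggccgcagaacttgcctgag
Hk2: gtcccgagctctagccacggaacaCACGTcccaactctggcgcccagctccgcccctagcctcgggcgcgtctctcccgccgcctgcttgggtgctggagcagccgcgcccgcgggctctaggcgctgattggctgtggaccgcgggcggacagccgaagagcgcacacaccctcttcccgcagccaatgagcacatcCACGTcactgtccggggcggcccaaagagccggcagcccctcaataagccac
Gpi1: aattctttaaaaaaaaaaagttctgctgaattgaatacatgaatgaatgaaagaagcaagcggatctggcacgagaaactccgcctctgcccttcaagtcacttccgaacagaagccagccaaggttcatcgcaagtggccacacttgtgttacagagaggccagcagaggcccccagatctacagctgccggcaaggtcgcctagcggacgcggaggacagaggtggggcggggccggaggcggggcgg
Eno2: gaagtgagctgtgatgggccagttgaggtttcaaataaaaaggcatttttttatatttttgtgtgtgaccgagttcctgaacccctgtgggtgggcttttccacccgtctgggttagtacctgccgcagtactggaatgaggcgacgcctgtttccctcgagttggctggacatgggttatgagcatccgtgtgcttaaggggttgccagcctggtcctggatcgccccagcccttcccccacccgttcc
In Pgk1 the cores begin 150 and 131 bases before the start, in Pgam1 114 bases and in Hk2 226 and 52 bases. Pfkm, which also varied little, holds the core in a promoter.

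In non-beta cells 0 of 41 members passed between the knockout label and controls in edgeR, as did 0 of 18908 genes (0%), while 821 genes and 1 member, Ogdh, had an unadjusted p below 0.05. DESeq2 called 29 genes and 0 members. The members' log2 fold changes ran from −0.31 (Ogdh) to 1.00 (Hk2, 1.81 ± 1.01 against 3.59 ± 1.40 CPM), with a median of 0.11. The glycolytic genes that varied most between libraries had the widest standard errors here, for example Gpi1 with 0.12 ± 0.45 and Tpi1 with 0.26 ± 0.45 (standard error).

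The label effect differed between the fractions for 1 of 41 members (2.44%, against 0.928% of 19942 genes, 0.612% higher and 0.316% lower). Of all calls 65.9% were higher, and 85.3% with scaling by library totals alone, where Gpd2 was again the member called. Its log2 fold change was −1.21 in beta and 0.06 in non-beta cells, a difference of −1.26 (SE 0.22, edgeR adjusted p = 0.0183). The call was lost with the replicate block, where no member passed (adjusted p = 0.0753 for Gpd2), and without control non-beta replicate 2 (0.0693), without knockout-labelled beta replicate 1 (0.063) or without knockout-labelled replicate 3 in both fractions (0.0558). Without knockout-labelled beta replicate 1 Fh1 was called in its place (adjusted p = 0.0444). Fh1 fell in beta cells and stood at 0.20 in non-beta cells, and its difference of −0.67 had an edgeR adjusted p of 0.101, and 0.00741 by DESeq2. For Eno2 (0.39, edgeR adjusted p = 0.353), Got1 (0.68, 0.187) and Idh3b (0.35, 0.301) a difference between the fractions was not shown.

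Control beta cells differed from control non-beta cells in 20 of 41 members, 15 higher and 5 lower (48.8%, against 53.5% of 19014 genes, 24.8% higher and 28.6% lower). The share of higher calls over all genes was 46.5%, and 36% with scaling by library totals alone, where 12 members were higher and 5 lower. The shuttles had 4 of 5 higher, the cycle 6 of 12 higher and 1 lower, and glycolysis 3 of 16 higher and 2 lower. The median log2 fold change was 0.33 over the members and −0.02 over all genes. The share called was thus near the background, with more higher than lower calls.

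The largest rise was that of Gpd2, whose values are given above, with a log2 fold change of 1.61 (edgeR adjusted p = 1.65e-05). Fh1 followed at 1.43 (edgeR adjusted p = 1.74e-06), from 84.7, 88.4 and 74.9 CPM in the non-beta libraries. Eno2 was at 1.40 (adjusted p = 9.61e-06), from 50.6, 37.7 and 54.1 CPM. For these 3 genes every beta library lay above every non-beta library, as for 15 of 41 members and 5124 of 19014 genes tested. Gpd1 had 58.7, 54.1, 59.2 and 58.0 CPM in beta and 18.6, 23.6 and 24.4 CPM in non-beta controls (log2 fold change 1.37, edgeR adjusted p = 5.46e-06), so that both enzymes of the glycerol phosphate shuttle were higher in beta cells. Idh2, which makes NADPH in mitochondria, had 334, 304, 291 and 315 against 139, 122 and 121 CPM (1.28, adjusted p = 2.24e-06). Pfkm had 55.8, 52.8, 51.7 and 57.6 against 27.2, 26.9 and 30.4 CPM (0.95, adjusted p = 1.44e-05). Neither gene overlapped between the fractions.

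The other members higher in control beta cells were Dlst (0.92), Mpc1 (0.85), Mdh1 (0.76), Ldhb (0.62), Got2 (0.50), Suclg1 (0.50), Pklr (0.44), Ogdh (0.33) and Idh3b (0.33, all log2 fold changes). Their rises were below 1 on the log2 scale. The subunits of the pyruvate carrier went opposite ways, since Mpc2 was lower (−0.60, edgeR adjusted p = 0.00115), from 80.5, 79.1 and 65.3 CPM in the non-beta libraries.

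The largest falls were in Hk2 and Fbp1. Hk2 had 0, 0.0324, 0.108 and 0.177 CPM in beta and 1.06, 1.43 and 2.95 CPM in non-beta controls, low in both (edgeR log2 fold change −4.43, adjusted p = 0.000303). Fbp1, the gluconeogenic fructose-1,6-bisphosphatase, had 5.71, 4.99, 7.43 and 9.02 CPM in beta and 78.5, 78.5 and 67.9 CPM in non-beta controls (−3.47, SE 0.19, edgeR adjusted p = 4.13e-07). Both genes were far lower in every beta library. Every beta library lay below every non-beta library for 5 of 41 members and 5635 of 19014 genes tested. The second Aldoa entry (ENSMUSG00000114515) was near 1 CPM, at 0.721, 0.876, 0.717 and 0.621 against 1.95, 1.25 and 2.08 CPM (−1.27, adjusted p = 0.00284). Cs had 100.1, 91.6, 99.0 and 99.4 against 113, 120.2 and 104 CPM (−0.21, adjusted p = 0.0497), a call kept in 5 of 15 alternatives.

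With a block for replicate number more glycolytic genes differed between the fractions. In controls the block leaves control beta replicate 1 without a partner, and 29 members differed between the fractions in edgeR, 25 higher and 4 lower in beta cells. The 11 added were Aldoa (log2 fold change and adjusted p 0.72, 0.00125), Aldoc (0.68, 0.00245), Eno1 (0.47, 0.00561), Gapdh (0.61, 0.00401), Gpi1 (0.61, 0.00633), Pfkl (0.54, 0.00609), Pfkp (0.85, 0.000278), Pgam1 (0.43, 0.00842), Pgk1 (0.40, 0.011), Pkm (0.53, 0.00459) and Tpi1 (0.49, 0.0206). All were higher in beta cells and all are among the 12 that kept the library order. Order and block both rest on deviations shared by same-numbered libraries, so that this overlap follows largely from how the 12 were chosen. Pklr and Cs (adjusted p = 0.0911) were lost. Leaving out control beta replicate 1 without a block gave 20 members, of which Aldoa and Aldoc were among the 11, and leaving out control non-beta replicate 4 gave 27. Under the knockout label, where every number has its partner, the block gave 18 members, adding Eno1 (0.87, 0.00989), Gapdh (0.68, 0.00726), Gpi1 (0.97, 0.00227), Pfkp (0.86, 0.00579) and Dlst (0.54, 0.0355). The share of all genes called is not given here for either block fit, nor for the fit without control non-beta replicate 4. The counts of members in these fits thus have no background beside them. Pfkp, for example, was 1.74, 1.95 and 1.76 times as high in beta as in non-beta cells in control replicates 2 to 4.

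**Figure D4:**
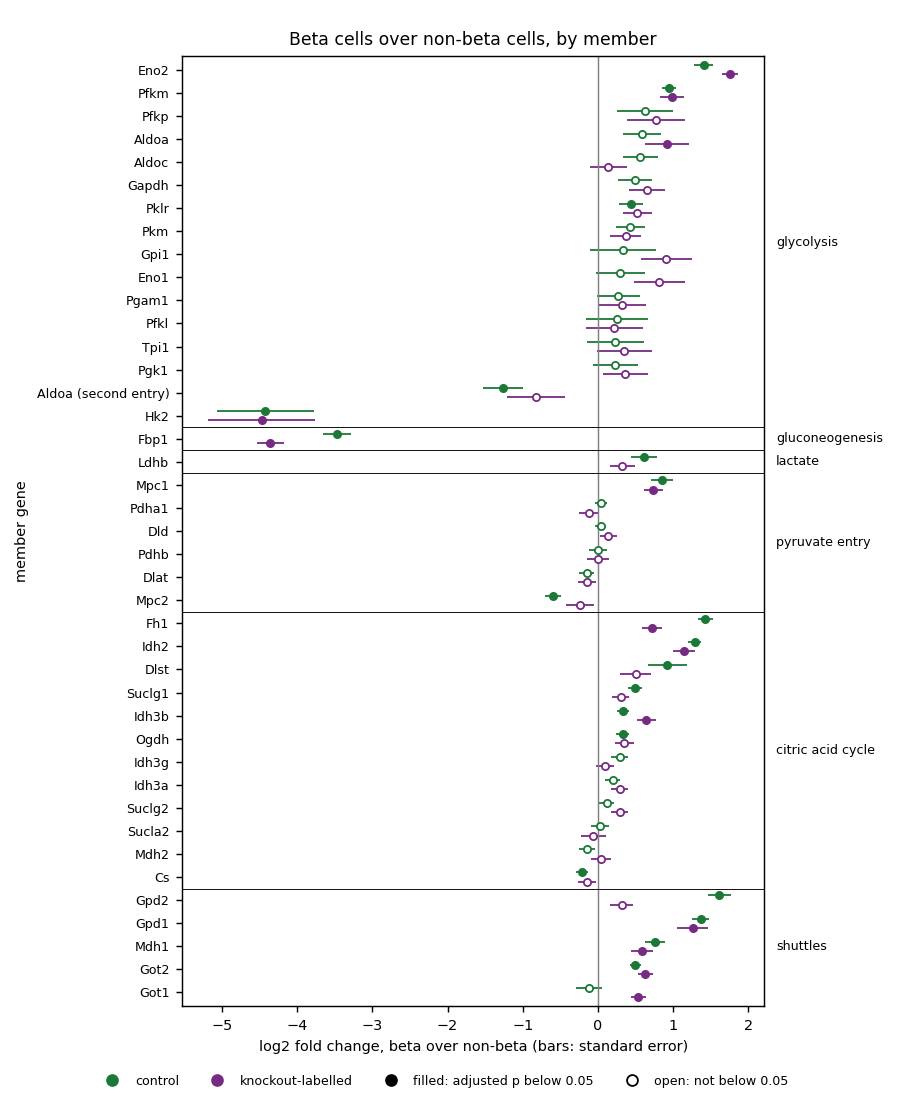
Log2 fold change of beta over non-beta cells for each member (points) with its standard error (bars), in control (green, 4 beta and 3 non-beta libraries) and knockout-labelled mice (purple, 3 and 3 libraries). Gpd2 stands at 1.61 in controls and 0.32 under the label, and Fbp1 and Hk2 lie below −3 in both.

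Under the knockout label 13 of 41 members differed between the fractions, 11 higher in beta cells and 2 lower (31.7%, against 42.6% of 18775 genes, 19.1% higher and 23.5% lower). Eno2 had the largest rise (1.76, edgeR adjusted p = 1.95e-05), then Gpd1 (1.26), Idh2 (1.14), Pfkm (0.98) and Aldoa (0.92). Got1 was higher in beta cells by 0.53 (adjusted p = 0.00292), where in controls it stood at −0.12 (0.583). Gpd2 was not called (0.32, adjusted p = 0.137). By replicate number, its ratio of beta to non-beta level was 3.36, 2.33 and 3.80 in control replicates 2 to 4 and 1.31, 1.61 and 1.02 in knockout-labelled replicates 1 to 3. For Fh1 these ratios were 2.41, 2.47 and 3.05 in controls and 1.96, 1.78 and 1.37 under the label. Both sets of ratios were higher in every control pair. The lowest ratio of each gene was that of knockout-labelled replicate 3, which held the most RNA of the other fraction in beta cells. The part of that RNA in these ratios was not tested.

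Isoenzyme shares of the per-kilobase level, given without a test, placed these differences within each step. Pkm made up 98.8% ± 0.282 of pyruvate kinase and Aldoa 98.0% ± 0.0643 of aldolase in control beta cells. Ldha made up 18.2% ± 18.0 of lactate dehydrogenase there, with 0.262, 4.83, 10.1 and 31.9 CPM in control beta replicates 1 to 4, and 86.7% ± 8.73 in control non-beta cells. The spread of Ldha in beta cells followed the library order of the glycolytic genes. Got1 made up 48.5% ± 1.30 of aspartate aminotransferase in control and 55.8% ± 1.12 in knockout-labelled beta cells, and Mpc2 18.6% ± 0.528 and 23.9% ± 2.13 of the pyruvate carrier. Suclg2 made up 31.5% ± 0.874 and 36.9% ± 0.823 of the beta chains of succinyl-CoA ligase.

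**Figure D5:**
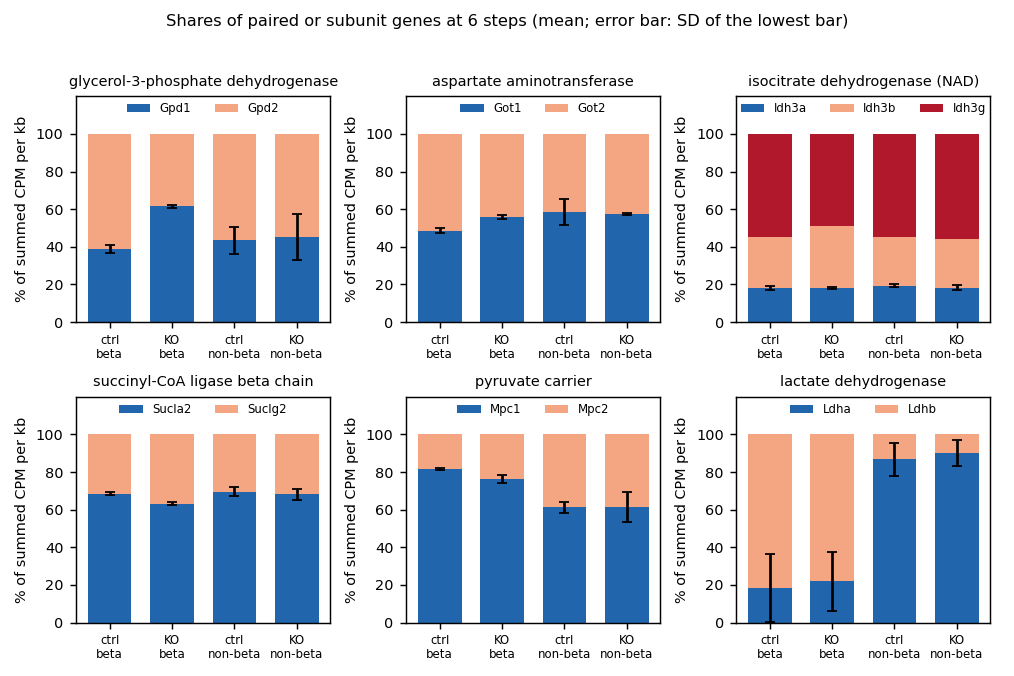
Share of each isoenzyme or subunit (percent of the summed CPM per kb of its step, vertical axes from 0) in the 4 groups, as group means of 3 or 4 libraries with SD bars. The Gpd2 share falls from 61.2% ± 2.06 in control to 38.5% ± 1.01 in knockout-labelled beta cells.

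Of 69 tested further genes of the pathway, 17 passed the same test in beta cells, of which 7 were higher and 10 lower under the label. That is 24.6%, against 20.1% of all genes tested, a share near the background. Slc2a2, the glucose transporter GLUT2 (−2.03), Pfkfb2, which makes and removes fructose 2,6-bisphosphate (−0.71, adjusted p = 0.000227), and G6pc2, the islet glucose-6-phosphatase (−0.49, 0.000589), fell. Pcx, pyruvate carboxylase, fell from 266 ± 24.2 to 158 ± 7.10 CPM (−0.75, edgeR adjusted p = 0.000185), and its label effect differed between fractions (interaction −0.85, adjusted p = 0.0221). Pck2, the mitochondrial phosphoenolpyruvate carboxykinase, rose from 121 ± 4.27 to 184 ± 8.77 CPM (0.61, edgeR adjusted p = 0.000164). Cytosolic malic enzyme Me1 (0.82), Myc (0.84), G6pc3 (0.37), the citrate carrier Slc25a1 (0.25), Ldhd (0.35) and Ppargc1a, from 1.34 to 3.94 CPM (1.57), were higher. In non-beta cells 0 of 73 such genes passed in edgeR, 1 of them with an unadjusted p below 0.05.

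Between the fractions, 41 of 73 further genes differed in controls (56.2%, against 53.5% of all genes) and 40 of 72 under the label (55.6%, against 42.6%). The largest differences in both were lower levels in beta cells of Slc2a3, Slc16a7, Pdk4 and Hk1, all past the threshold in edgeR. Slc2a3 was at 0 to 0.0649 CPM in control beta and 18.3 to 31.1 CPM in control non-beta libraries, and Slc16a7 at 0 to 0.0359 and 5.37 to 8.49 CPM. The log2 fold changes were −7.11 in controls and −5.79 under the label for Pdk4, and −6.95 and −5.26 for Hk1. These genes encode a glucose transporter, a monocarboxylate transporter, a kinase that inhibits pyruvate dehydrogenase and a hexokinase of high glucose affinity. Hk1 is among the genes known to be kept low in beta cells. The levels in beta cells rest on few counts, and Hk1 had 0.131, 0.227, 0.717 and 0.444 CPM in control and 0.274, 0.248 and 2.36 CPM in knockout-labelled libraries, against 33.7, 23.6 and 82.2 CPM in control non-beta libraries. Knockout-labelled beta replicate 3, with the most RNA of the other fraction, was the highest of the beta libraries for all 4 genes. The part of that RNA in these levels was not tested.

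Several members overlap other genes, with which reads may be shared. Of the 41 entries 15 share exon bases with another gene of the annotation, up to 23.1% in Mpc1 and 22.0% in Pklr. Gapdh, Aldoa, Eno1, Pgk1, Pgam1 and Tpi1 have near-identical processed copies elsewhere in the genome, and how reads with several matches were counted is not given in the sources used here.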

How the data were processed

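Raw counts per gene of 13 libraries were deposited by the authors. Per the submitters' processing notes, FastQC, STAR and edgeR were used with the build GRCm38.p6. The counting program, its strand setting and the annotation release are not given in the sources used here. The deposited RPKM values were not used. The authors' deposited tables of comparisons hold log2 fold changes, p-values and false discovery rates, per the file headers.

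Counts were tested in R 4.3.3 with edgeR 4.0.16 (filterByExpr with a minimum count of 10, TMM scaling, quasi-likelihood F test), adjusted by Benjamini-Hochberg over all genes tested, with 0.05 as the threshold. Only the groups compared entered a fit, and the difference of the label effect between fractions was a contrast over all 13 libraries. Levels are CPM with TMM sizes of all 13 libraries. The tests were tried on simulated data. Alternatives were DESeq2 1.42.0, other scalings and filters, a replicate block and leaving out each library, with limma 3.58.1 loaded by edgeR. Library totals of 28.7 to 36.8 M counts limit the precision of low genes to their counting error.

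Values in every library were given for members called between labels or in the interaction, and for the 6 largest rises and the falls between control fractions. Of the further genes, the 12 with the smallest adjusted p between beta groups were named, and 4 in each fraction comparison, and 1 gene so chosen is not reported here. Pfkl, Eno1, Pgk1, Slc2a1, Egln3, Ldha, Pecam1, Ppy and the uncalled members were chosen after their values were seen. The members, the lists and the alternatives were chosen with earlier results of these data known.

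The labels number the replicates without saying what a number shares. Deviations from group means of same-numbered libraries correlated at 0.141, 0.116 and 0.263 between control fractions (replicates 2 to 4), at 0.144, 0.171 and 0.112 between knockout-labelled fractions and at 0.146, 0.158 and 0.115 between beta groups. All were over 0.1 and were taken as pairs, from the data alone. Libraries with different numbers gave −0.0995 to −0.0434 between knockout-labelled fractions, but reached 0.176 between control fractions and 0.148 between beta groups, as high as some same-numbered pairs. In non-beta cells only replicates 2 and 3 are shared (−0.0993 and 0.407).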

Additional observations from a re-analysis of the deposited data

Results flagged for a closer look

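Among 41 entries screened for a single stray library in the 4 control beta libraries, 2 were found, where chance gives about 1 in 20. Citrate synthase (Cs) was lowest in control beta replicate 2, at 91.6 CPM, with the next library at 99.0 CPM. Sucla2 was highest in control beta replicate 1, at 109 CPM, with the next at 99.7 CPM. The label effect on Gpd2 differed between beta and non-beta cells by −1.26 on the log2 scale, as tested by the interaction contrast, a call that was kept in 18 of 22 alternatives and lost, among others, with the replicate block (edgeR adjusted p = 0.0753).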

How the results depend on the processing

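No member changed sign in a call. In beta cells the members called between labels, 9 at first, were 14 without a filter on low counts, 14 with the replicate block, 5 in a fit of all 13 libraries and 6 to 13 when 1 library was left out. All genes called, 3525 at first, were 1671 in the fit of all 13 libraries and 1990 to 4117 with 1 library left out (1990 without knockout-labelled replicate 1, 2221 without control replicate 2 and 2343 without knockout-labelled replicate 2). In non-beta cells the genes called, 0 at first, were 29 by DESeq2, 1 without the filter, 12 with the replicate block and 3 in the fit of all 13 libraries, and 0 to 0 with 1 library left out. Between knockout-labelled fractions the stricter filter of 5 CPM gave 5319 genes (7992 at first), leaving out 1 library 6277 to 8752, and 13 to 17 members. Between control fractions leaving out 1 library gave 17 to 27 members and 8716 to 10880 genes. For the interaction the members called were 2 by DESeq2 (Gpd2 and Fh1), 0 with the replicate block, 0 without knockout-labelled replicate 3 in both fractions (an alternative chosen after seeing the data) and 0 to 2 with 1 library left out. Without control non-beta replicate 2 the count was 0, and without control non-beta replicate 3 it was 2, with Got1 added. All genes called in the interaction, 185 at first, were 557 by DESeq2, 50 with the replicate block, 90 without control replicate 4 in both fractions and 62 (without control non-beta replicate 2) to 285 (without control non-beta replicate 3) with 1 library left out. It also fell by over 1.5 times without control beta replicate 1, 2 or 3, any knockout-labelled beta library, or knockout-labelled non-beta replicate 1 or 2. Where a construction does not show it, the cause was not tested.

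Beyond the calls given beside the results in the report, the replicate block changed no other call of a member. Scaling by library totals moved the median of all genes to −0.146 between control fractions and to 0.132 in the interaction. It moved the share of higher calls in beta cells between labels from 50.4% to 69.5%, between control fractions from 46.5% to 36%, and in the interaction from 65.9% to 85.3%. Of the alternatives for members named by call, 114 kept and 21 lost the call between labels in beta cells, 153 and 10 between control fractions, 178 and 3 between knockout-labelled fractions and 18 and 4 in the interaction.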
